A study of Mus musculus with 9 samples.

Results

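The genes described here encode receptors for blood cell cytokines, namely Csf2ra, Il3ra, Csf2rb, Csf2rb2, Il6ra, Il6st, Csf3r and Flt3. They are a list of 8 names, found by gene symbol among the probes of the array, out of 23027 genes that were tested. All 8 were found, and all 8 were well above background on all 9 arrays, so that every gene of the list entered the tests. The cells were LSK cells, the fraction of mouse bone marrow without lineage markers and with Sca1 and cKit on the surface, which is rich in blood stem cells. They came from female mice in 3 groups of 3 samples. The Drosha-deleted group had the alleles Drosha fl/fl with Gt(ROSA)26Sor CreERT2, the Dicer-deleted group had Dicer fl/fl with Gt(ROSA)26Sor CreERT2, and the control group had Gt(ROSA)26Sor CreERT2 alone. All 3 groups thus shared the Cre recombinase that tamoxifen activates, driven from the Rosa26 locus, which is active in most cell types, and all 3 were kept with 250 nM 4OH-tamoxifen for 72 h. The medium held IL-3 at 10 ng/mL, IL-6 at 10 ng/mL, stem cell factor at 50 ng/mL and 10% serum, with 50000 cells in 50 µL per well. RNA was measured on one-colour Agilent arrays with 1 sample per array. Nothing in the labels ties the repeats to different animals. A p-value thus reflects how far these samples differ from one another, which may be technical. Precision is limited by the 3 arrays per group. In cultured bulk samples, fewer cells of a type and less RNA per cell cannot be told apart.

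Receptors of this kind carry the signals that keep early blood cells alive and steer them toward myeloid fates. IL-3 binds an alpha chain of its own, Il3ra, which pairs with the shared beta chain Csf2rb or, in the mouse, with the close relative Csf2rb2, which serves IL-3 only. GM-CSF binds Csf2ra and also needs Csf2rb. IL-6 binds Il6ra and signals through Il6st, also called gp130. Csf3r is the receptor of G-CSF on cells of the neutrophil lineage, and Flt3 is a receptor tyrosine kinase of multipotent and lymphoid-primed progenitors. Drosha and Dicer are the enzymes that cut microRNA precursors in the nucleus and in the cytoplasm. The comparisons ask what the loss of each enzyme does to RNA levels, and in which genes the 2 losses differ.

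All values below are the authors' series values, which are on a log2 scale, so that a difference of 1 unit is a doubling of signal. A probe's value was compared only with the same probe on other arrays. The Drosha probe had 8.81, 8.92 and 9.32 in the Drosha-deleted samples, 11.99, 12.16 and 11.94 in the Dicer-deleted samples, and 12.04, 11.88 and 11.85 in the controls. The Dicer1 probe had 10.53, 10.00 and 10.80 in the Drosha-deleted samples, 8.99, 9.18 and 8.97 in the Dicer-deleted samples, and 9.92, 10.50 and 10.44 in the controls. Both targeted genes were thus lowest in the group named for them, with no overlap, although only the fall of Drosha passed the test (limma adjusted p = 0.000152; 0.118 for Dicer1). Whether these probes lie in the deleted exons is not given in the sources used here. The series columns of control replicates 2 and 3 stood apart from the other 7. They correlated at 0.991 with each other and at 0.977 to 0.985 with the others, which correlated at 0.988 to 0.994 among themselves. In 10462 genes, or 45.4% of those tested, both of these controls lay outside the range of the other 7 columns, but none of the 8 receptor genes was among them. Control replicate 3 was also the only array on its slide, and the column of control replicate 2 did not match its scanner file (r = 0.882, against 0.974 or more for the other 8). It correlated at 0.974 with the scanner file of control replicate 3 and at 0.958 or less with those of the other 7, so which array lies behind it is not known, and whether the 3 control columns are 3 separate samples is open to doubt. Some results against control are therefore also given without control replicate 2 or with both controls as a batch, which leaves control replicate 1 alone as the control. The comparison of the 2 deletions lies within 1 slide and uses the controls only in the shared estimate of spread. Of the LSK marker list, 10 of 10 genes were measured above background. Markers of maturing and of lymphoid cells were measured too, with 12 of 13 neutrophil, 11 of 12 monocyte and macrophage, 11 of 12 dendritic cell, 11 of 14 mast cell and basophil, 7 of 12 B and early lymphoid and 6 of 10 T and NK genes above background on all arrays of at least 1 group. Pax5, Ebf1, Rag1, Cd3g and Cd8a were not, whereas Cd79b, Dntt, Cd3e, Cd4, Lck and Thy1 were.

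No receptor gene passed the threshold of an adjusted p under 0.05 in any comparison by limma. In Drosha-deleted against control, 0 of the 8 passed, beside 0.169% of all genes, and 1 of 8 had an unadjusted p under 0.05, beside 26.9% of all genes. In Dicer-deleted against control, 0 of 8 passed, beside 0.0174%, and 1 of 8 had an unadjusted p under 0.05, beside 21.9%. In Drosha-deleted against Dicer-deleted, 0 of 8 passed, beside 0.0565%, and 2 of 8 had an unadjusted p under 0.05, beside 5.65%. For the mean of both deletions against control and for any difference among the 3 groups, 0 of 8 passed, beside 0.13% and 0.0912%, and 0 and 2 of 8 had an unadjusted p under 0.05, beside 30.2% and 22%. The median difference over the 8 genes was 0.01, -0.03 and 0.02 log2 units in the 3 comparisons of single groups, and over all genes it was -0.0021, -0.0016 and 0.0035. The 2 genes with the larger differences were Flt3 and Il6st, and the other 6 differed by at most 0.20 log2 units between any 2 groups with all 9 columns. For these 6, no difference passed the threshold under the settings for the doubtful controls, but sizes and signs moved. Without control replicate 2, Drosha-deleted cells differed from controls by -0.39 in Csf2rb, -0.45 in Csf2rb2 and -0.04 in Csf2ra, and Dicer-deleted cells by -0.26, -0.31 and -0.24. With both controls as a batch, Drosha-deleted cells differed by -0.21 in Csf2rb, -0.31 in Csf2rb2, -0.20 in Csf2ra, 0.12 in Il3ra, -0.37 in Il6ra and -0.06 in Csf3r, and Dicer-deleted cells by -0.07, -0.17, -0.40, 0.15, -0.31 and -0.13.

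**Figure D1:**
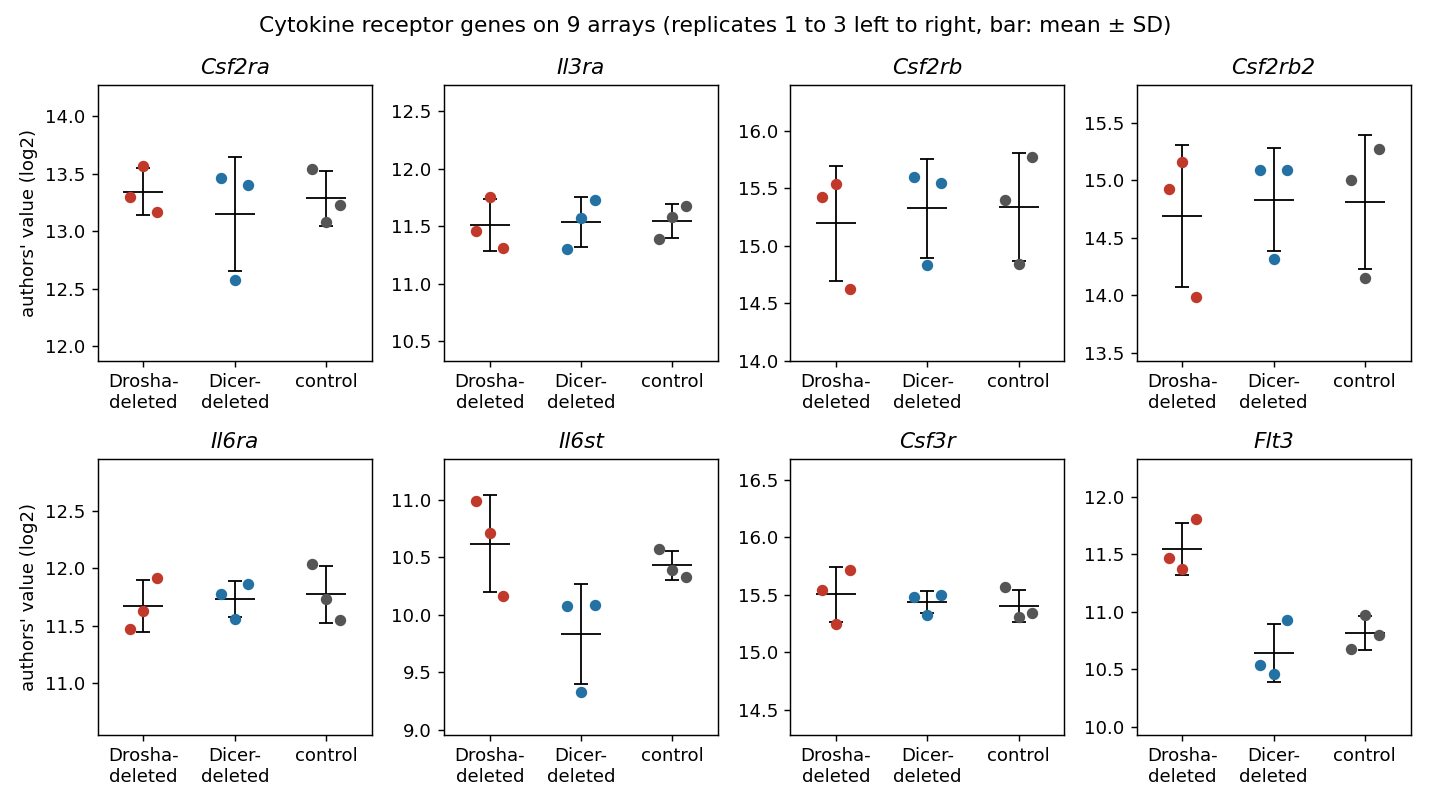
Levels of the 8 receptor genes on the 9 arrays (authors' log2 values, vertical axis, each panel spanning 2.4 units), with 1 point per sample and bars for the mean ± SD of 3 samples. Flt3 shows the 3 Drosha-deleted samples above all others, Il6st shows the 3 Dicer-deleted samples lowest, and the other 6 genes overlap in all groups.

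Flt3 was the receptor gene with the largest difference. Its probe at chr5:148142576-148142635 (mm9, minus strand) had 11.46, 11.37 and 11.81 in the Drosha-deleted samples, 10.54, 10.46 and 10.93 in the Dicer-deleted samples, and 10.68, 10.97 and 10.80 in the controls. The 3 Drosha-deleted samples lay above all 6 others, and the Dicer-deleted samples overlapped the controls. Flt3 was higher by 0.73 log2 units in Drosha-deleted cells than in controls (SE 0.17, 95% interval 0.35 to 1.12, a factor of 1.66), with a limma adjusted p of 0.0913. Against the Dicer-deleted cells the difference was 0.91 (SE 0.17, interval 0.52 to 1.30, a factor of 1.88; limma adjusted p = 0.209). Dicer-deleted cells differed from controls by -0.17 (interval -0.56 to 0.21; limma adjusted p = 0.555). Drosha-deleted samples lying above all controls was seen in 1 of 8 receptor genes, beside 12.7% of all genes, and Drosha-deleted samples lying below all controls in 0 of 8, beside 10.5%.

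The difference between Drosha-deleted cells and controls in Flt3 was as large without the doubtful arrays. It was 0.81 without control replicate 2 (limma adjusted p = 0.263), 0.72 without control replicate 3 (adjusted p = 0.306) and 0.87 with both as a batch (adjusted p = 0.515). Without control replicate 1 it was 0.67 and passed the threshold (adjusted p = 0.0269), but there 7747 genes were called where 39 were called with all 9 columns, and the 2 controls left in that fit are those that stand apart. A second Flt3 probe, at chr5:148178496-148178555 (mm9, minus strand), had 7.54, 7.63 and 8.13 in the Drosha-deleted samples, 7.31, 7.68 and 7.30 in the Dicer-deleted samples, and 7.09, 7.11 and 7.29 in the controls. On this probe the Drosha-deleted samples were again above the controls, by 0.60 (adjusted p = 0.116). The probes disagreed on the Dicer-deleted cells, which were 0.27 above the controls on the second probe (adjusted p = 0.389), and the difference between the deletions was only 0.34 there (adjusted p = 0.971).

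Near profiles were sought among genes with a RefSeq symbol, leaving out Gm, LOC and Rik entries and accession-like names. Those closest to Flt3 over the 9 arrays were Ctsw, Pde3b and Tpm2. Their root mean square distances were 0.17, 0.17 and 0.18 log2 units after each profile was centred on its own mean. Ctsw encodes a protease of cytotoxic lymphocytes, Pde3b a phosphodiesterase that breaks down cyclic AMP, and Tpm2 a tropomyosin. The means of Ctsw were 8.59 in Drosha-deleted, 7.84 in Dicer-deleted and 8.08 in control samples.

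**Figure D2:**
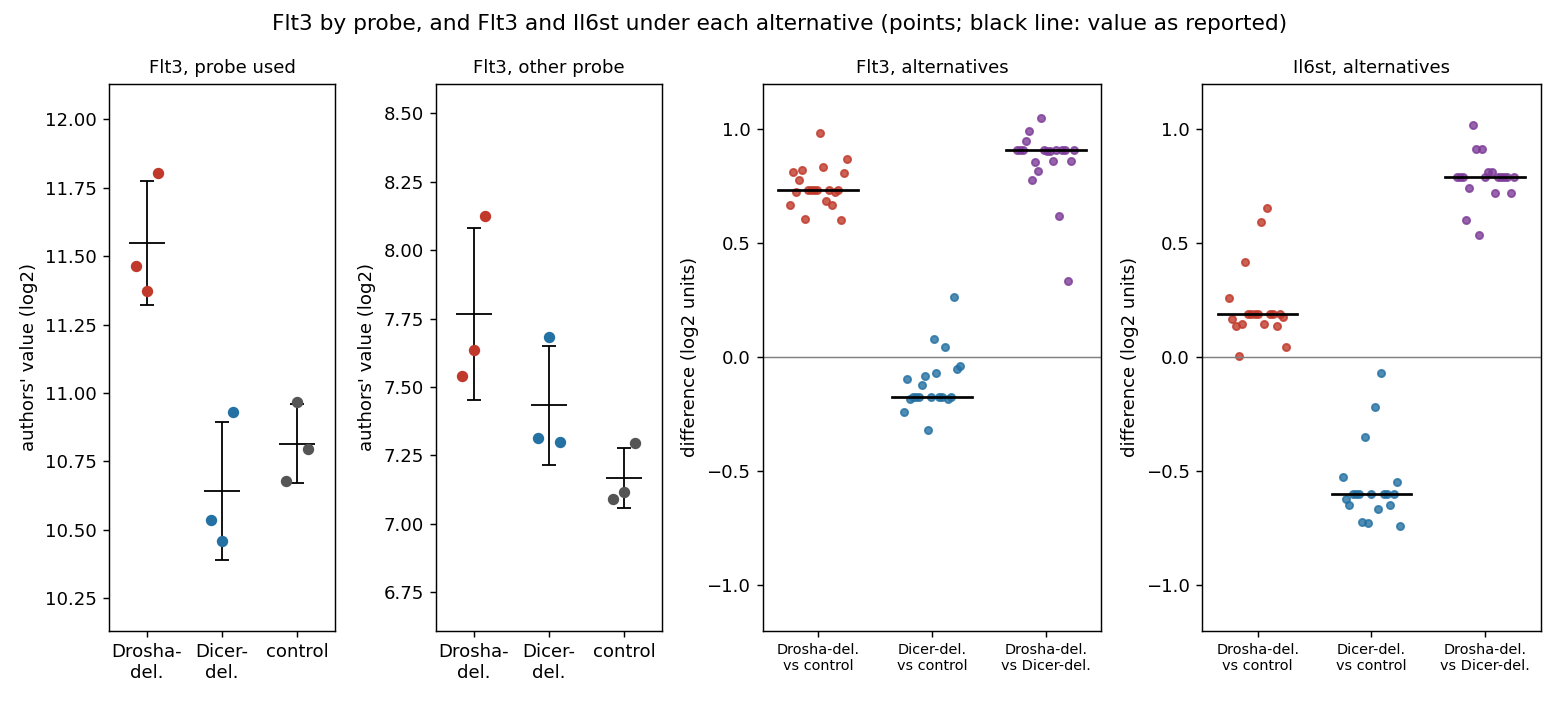
Left, both Flt3 probes on the 9 arrays (authors' log2 values, mean ± SD, n = 3). Right, the differences of Flt3 and Il6st in 3 comparisons (log2 units), where each point is 1 alternative setting and the black line is the value as reported. Flt3 was above 0 in Drosha-deleted against control in all 20 settings (0.60 to 0.98), and Il6st was above 0 in Drosha-deleted against Dicer-deleted in all 19 (0.54 to 1.02). Settings that only leave out or block controls could not change the difference between the deletions, so these 19 are not separate checks. Slide as a block was the same fit as leaving out control replicate 3.

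Il6st, the signalling chain gp130 of the IL-6 receptor, was lowest in the Dicer-deleted cells. Its probe at chr13:113296586-113296645 (mm9, plus strand) had 10.99, 10.71 and 10.16 in the Drosha-deleted samples, 10.08, 9.33 and 10.08 in the Dicer-deleted samples, and 10.57, 10.39 and 10.33 in the controls. All 3 Dicer-deleted samples were below the other 6, the nearest pair being 10.08 and 10.16. Dicer-deleted cells differed from controls by -0.60 log2 units (SE 0.26, interval -1.18 to -0.02; limma adjusted p = 0.219). Without Dicer-deleted replicate 2, the lowest array, the difference was -0.35 (adjusted p = 0.469), and without control replicate 2 it was -0.62 (adjusted p = 0.514). With control replicates 2 and 3 as a batch it was -0.74, and Drosha-deleted cells then differed from the control by 0.05. Dicer-deleted replicate 2 and Drosha-deleted replicate 3 were the lowest arrays of their groups in Il6st. They were also the lowest of their groups in the summed neutrophil and mast cell and basophil markers described below. Control replicate 2, the lowest control in those sums, was not the lowest control in Il6st, with 10.39 against 10.33 on control replicate 3. The part of such marker changes in Il6st was not tested. Drosha-deleted cells differed from Dicer-deleted cells by 0.79 (SE 0.26, interval 0.21 to 1.37; adjusted p = 0.668) and from controls by 0.19 (interval -0.39 to 0.77; adjusted p = 0.652). Dicer-deleted samples lay below all controls in 1 of 8 receptor genes, beside 9.94% of all genes, and Drosha-deleted samples lay above all Dicer-deleted samples in 2 of 8, Flt3 and Il6st, beside 8.62%. The opposite orders, Dicer-deleted above all controls and Drosha-deleted below all Dicer-deleted samples, were seen in 0 of 8, beside 11.6% and 6.77%.

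By the same search, the profiles closest to that of Il6st were those of Nxpe5, Homer2 and Fam114a1, at distances of 0.15, 0.16 and 0.17 log2 units. Homer2 encodes a scaffold protein that binds glutamate receptors and calcium channels. Its means were 9.30 in Drosha-deleted, 8.66 in Dicer-deleted and 9.12 in control samples.

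Il6ra, the chain that binds IL-6 itself, did not show this order. At chr3:89674054-89674113 (mm9, minus strand) it had 11.47, 11.63 and 11.91 in the Drosha-deleted samples, 11.77, 11.56 and 11.86 in the Dicer-deleted samples, and 12.04, 11.73 and 11.55 in the controls. The 3 groups overlapped throughout. The difference was -0.11 for Drosha-deleted (interval -0.49 to 0.28) and -0.04 for Dicer-deleted cells (interval -0.43 to 0.34) against controls.

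**Figure D3:**
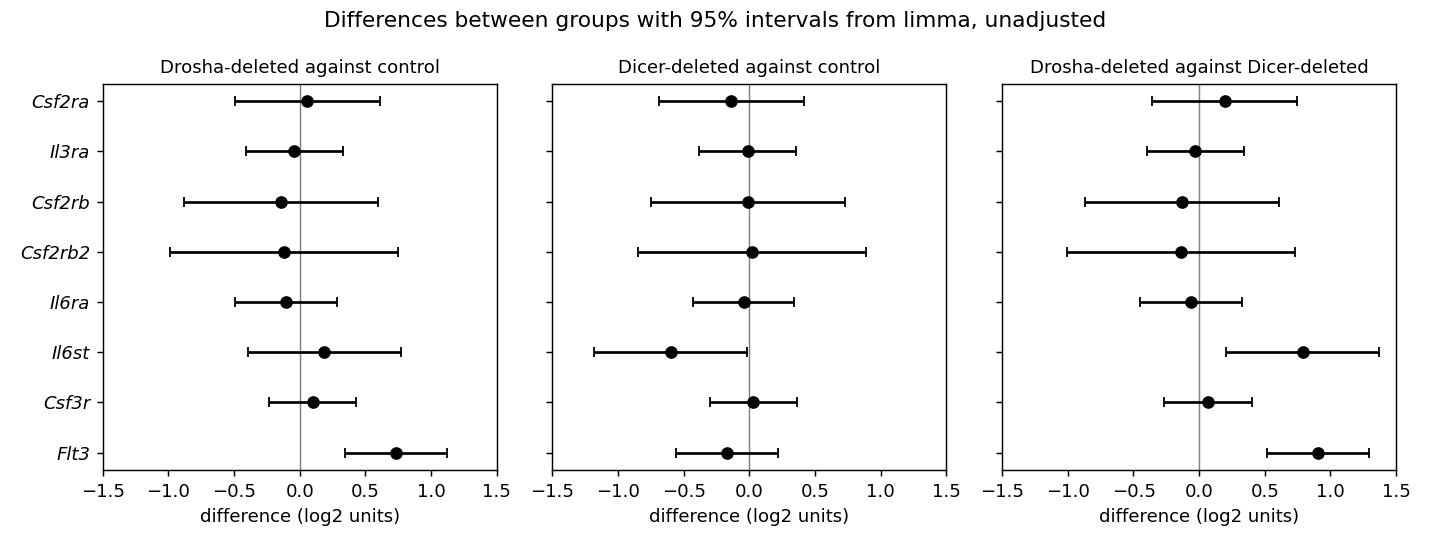
Differences of the 8 receptor genes in 3 comparisons (log2 units, horizontal axis), as points with the unadjusted 95% interval from limma. The intervals of Flt3 in Drosha-deleted against control (0.35 to 1.12) and against Dicer-deleted (0.52 to 1.30), and of Il6st in Dicer-deleted against control (-1.18 to -0.02) and in Drosha-deleted against Dicer-deleted (0.21 to 1.37), lie away from 0, but none passed the threshold after adjustment over all genes.

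The beta chains for IL-3 and GM-CSF varied more between arrays of the same group than between groups. Csf2rb, the common beta chain, at chr15:78181168-78181227 (mm9, plus strand), had 15.42, 15.54 and 14.62 in the Drosha-deleted samples, 15.60, 14.83 and 15.55 in the Dicer-deleted samples, and 15.40, 14.84 and 15.77 in the controls. Csf2rb2, the IL-3-specific beta chain, at chr15:78113126-78113185 (mm9, minus strand), had 14.93, 15.16 and 13.99 in the Drosha-deleted samples, 15.09, 14.31 and 15.09 in the Dicer-deleted samples, and 15.00, 14.15 and 15.27 in the controls. Each group held 1 low array in both genes, Drosha-deleted replicate 3, Dicer-deleted replicate 2 and control replicate 2, and the groups overlapped. The spread within groups was 0.47 log2 units for Csf2rb and 0.56 for Csf2rb2 (pooled SD, 3 groups of 3), larger than in 90.9% and 95.1% of all genes, whose median spread was 0.23. Between groups, Csf2rb differed by -0.14 in Drosha-deleted (interval -0.88 to 0.59) and by -0.01 in Dicer-deleted cells (interval -0.75 to 0.73) against controls. Csf2rb2 differed by -0.12 (interval -0.99 to 0.75) and by 0.02 (interval -0.85 to 0.89). These intervals are the widest of the 8 genes.

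By the same search among named genes, the profile closest to that of Csf2rb was that of Csf2rb2, at a distance of 0.09 log2 units. The 2 genes are neighbours on chromosome 15 and near copies, and the probes used for them are alike in sequence, so part of the signal of one may come from RNA of the other. The best matching stretch of 30 bases, with 27 in common, is shown here from each probe because it bears on whether the 2 genes were measured apart; capitals mark the bases that differ.
Csf2rb probe, bases 30 to 59: ggcagatcaaAtgtCccttggtctCtgttc
Csf2rb2 probe, bases 12 to 41: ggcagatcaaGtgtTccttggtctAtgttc
Counted from 1 at the start of the printed stretch, with the Csf2rb base first, the differences are A11G, C15T and C25A. Each gene had a second probe, and these were not alike, with at most 15 of 30 bases in common in any pairing with a probe of the other gene. The second Csf2rb probe, at chr15:78179504-78179563, had 12.12, 12.46 and 11.15 in the Drosha-deleted samples, 12.36, 11.69 and 12.38 in the Dicer-deleted samples, and 12.11, 11.02 and 12.11 in the controls. The second Csf2rb2 probe, at chr15:78114097-78114156, had 13.26, 13.44 and 11.53 in the Drosha-deleted samples, 13.48, 12.57 and 13.53 in the Dicer-deleted samples, and 13.18, 12.25 and 13.33 in the controls. The same array was lowest in each group on all 4 probes.

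The alpha chains behaved differently from each other. Csf2ra, the GM-CSF alpha chain, at chr19:61300336-61300395 (mm9, minus strand), had 13.30, 13.57 and 13.17 in the Drosha-deleted samples, 13.47, 12.58 and 13.41 in the Dicer-deleted samples, and 13.55, 13.08 and 13.23 in the controls. Its lowest array in each group was the same as for the beta chains. Csf2ra differed by 0.06 in Drosha-deleted (interval -0.50 to 0.61) and by -0.14 in Dicer-deleted cells (interval -0.69 to 0.42) against controls. Il3ra, the IL-3 alpha chain, at chr14:15187898-15187957 (mm9, plus strand), had 11.46, 11.76 and 11.31 in the Drosha-deleted samples, 11.31, 11.58 and 11.73 in the Dicer-deleted samples, and 11.39, 11.58 and 11.68 in the controls. Il3ra did not have its lowest value on Dicer-deleted replicate 2 or on control replicate 2. It differed by -0.04 in Drosha-deleted (interval -0.41 to 0.33) and by -0.01 in Dicer-deleted cells (interval -0.38 to 0.36) against controls.

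**Figure D4:**
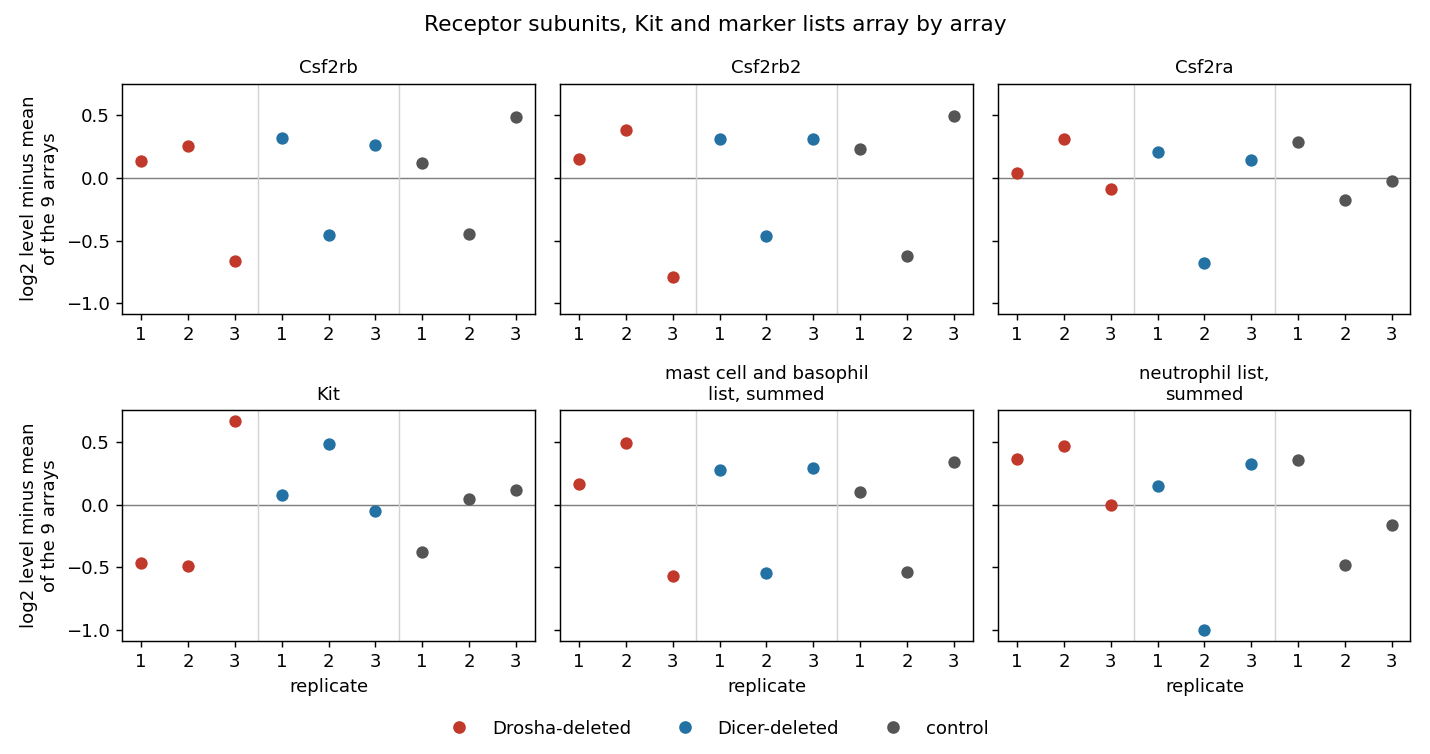
Csf2rb, Csf2rb2, Csf2ra, Kit and the summed levels of the mast cell and basophil list and of the neutrophil list, by replicate, as log2 level minus the mean of the 9 arrays. Drosha-deleted replicate 3, Dicer-deleted replicate 2 and control replicate 2 are the lowest arrays of their groups in both beta chains, in Csf2ra and in both lists.

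Most neutrophil markers and most mast cell and basophil markers moved with the beta chains from array to array, and few monocyte and dendritic cell markers did. On Drosha-deleted replicate 3, Dicer-deleted replicate 2 and control replicate 2, the summed level of the mast cell and basophil list was 15.95, 15.98 and 15.98, against 16.62 to 17.01 on the other 6 arrays. Of its 11 measured genes, 7 were lowest in each group on these arrays, namely Mcpt8, Cpa3, Fcer1a, Ms4a2, Hdc, Il1rl1 and Prss34. Of 12 measured neutrophil genes, 10 were, among them Ctsg, Camp, Ltf, Ngp, S100a8 and Mmp8, and the summed neutrophil level on these arrays was 19.94, 18.94 and 19.46, against 19.78 to 20.41 on the others. Of the eosinophil list 3 of 9 measured genes were lowest on these arrays, namely Prg2, Prg3 and Epx. The summed eosinophil level was 13.261, 11.676 and 12.715 on these arrays, against 13.327 to 13.903 on the others. Of the monocyte and macrophage list 2 of 11 genes were lowest on these arrays, and of the dendritic cell list 2 of 11. The summed monocyte level was 15.84, 15.46 and 15.09 on them, against 15.35 to 15.77 on the others, and the dendritic level was 17.50, 16.78 and 17.28, against 17.05 to 17.51, so that in both lists Drosha-deleted replicate 3 was the highest of its group, whereas Dicer-deleted replicate 2 and control replicate 2 were the lowest of theirs. These sums are linear and weigh bright genes most. On Drosha-deleted replicate 3, Itgam alone had 15.30 and Siglech alone 16.79. Single genes were split there: Itgam, Csf1r, Siglech and H2-Eb1 were highest of the Drosha-deleted group, but Cd14, Adgre1, Mrc1, Cd68, H2-Aa and Batf3 were lowest. Siglech had 16.3 to 16.8 on the 9 arrays, and its profile lay 0.05 log2 units from that of the Csf3r probe, described below. Whether the summed dendritic level followed dendritic cells was not tested. Ly6g of the neutrophil list and Mcpt1, Mcpt2 and Tpsab1 of the mast cell list were not above background on all arrays of any group. Of all genes, 5.62% were lowest on these 3 arrays and 8.19% were highest on them. The LSK list went the other way, with 0 of 10 genes lowest and 4 highest, and a summed level of 16.52, 16.41 and 16.40, against 15.84 to 16.19 on the others. Kit, the receptor of stem cell factor, had 11.93, 11.90 and 13.06 in the Drosha-deleted samples, 12.47, 12.88 and 12.34 in the Dicer-deleted samples, and 12.01, 12.43 and 12.50 in the controls. Kit was thus highest on Drosha-deleted replicate 3 and Dicer-deleted replicate 2 within their groups, but not on control replicate 2. These 3 arrays were picked out because Csf2rb is lowest there, so the values are a description, and the part of cell composition in the spread of the receptors was not tested.

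Promoters were compared for the receptors that moved together. RefSeq (GRCm38.p6) gave a promoter for 7 of the 8 genes, the exception being Csf2rb. The motif GAGGAAG, a core of the sites bound by PU.1, a transcription factor of myeloid cells, was searched on both strands in the 250 bases before and 50 after each start. It was present in Csf2ra, Csf2rb2 and Csf3r and in 13.6% of 32851 promoters. The motif TTCNNNGAA, bound by STAT proteins, was in Csf2rb2 alone of the 7 (8.30% of all promoters), and AGATAA, bound by GATA factors, was in Il6ra alone (11.2%). The 250 bases before the start of the 2 genes of the group with low arrays in common are shown with the PU.1 motif in capitals, 2 overlapping copies in Csf2ra and 1 copy on the opposite strand in Csf2rb2, where a second copy lies after the start.
Csf2ra promoter, chr19:61228419-61228668, minus strand: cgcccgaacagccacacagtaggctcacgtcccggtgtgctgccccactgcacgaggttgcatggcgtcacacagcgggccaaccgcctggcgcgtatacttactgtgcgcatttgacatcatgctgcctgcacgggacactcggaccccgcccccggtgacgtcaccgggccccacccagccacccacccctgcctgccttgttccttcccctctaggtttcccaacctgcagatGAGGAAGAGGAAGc
Csf2rb2 promoter, chr15:78305722-78305971, minus strand: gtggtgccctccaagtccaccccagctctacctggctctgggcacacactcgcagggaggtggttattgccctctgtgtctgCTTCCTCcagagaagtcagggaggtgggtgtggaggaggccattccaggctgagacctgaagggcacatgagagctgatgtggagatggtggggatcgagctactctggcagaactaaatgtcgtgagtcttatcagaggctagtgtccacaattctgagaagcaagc
A match is a description of letters in this window, not of binding.

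Csf3r, the G-CSF receptor, had 15.54, 15.25 and 15.72 in the Drosha-deleted samples, 15.48, 15.33 and 15.50 in the Dicer-deleted samples, and 15.56, 15.31 and 15.34 in the controls. The groups overlapped, and the differences from controls were 0.10 for Drosha-deleted (interval -0.23 to 0.43) and 0.03 for Dicer-deleted cells (interval -0.30 to 0.36). Csf3r was lowest of its group on Dicer-deleted replicate 2 and on control replicate 2, as all 12 measured neutrophil genes were. It was highest of its group on Drosha-deleted replicate 3, where 10 of the 12 were lowest. Its only probe, at chr4:125721478-125721537 (mm9, plus strand), shares a run of 15 or more bases with probes of 10 other genes, whereas each other receptor probe shares one with at most 1. Stretches of 30 bases are shown from 3 of these probes because they bear on what the Csf3r probe can measure; capitals mark the 18 bases that all 3 have in common.
Csf3r probe, bases 31 to 60: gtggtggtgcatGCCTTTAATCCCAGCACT
Gm13241 probe, bases 31 to 60: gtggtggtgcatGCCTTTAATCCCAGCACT
Slc10a1 probe, bases 1 to 30: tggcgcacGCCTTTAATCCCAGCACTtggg
The run GCCTTTAATCCCAGCACT belongs to the B1 repeat family, which is present in very many mouse transcripts. Slc10a1 encodes a bile acid transporter of hepatocytes, and its probe had an authors' value of 18.1 to 18.3 on the 9 arrays. The Gm13241 probe, whose last 30 bases equal those of the Csf3r probe, had 15.6 to 16.1. Of the 10 probes that share a run, 5 were in the upper 20% of all probes and 5 were lower, among them the Gm7122 probe with a mean of 5.58 and the C230037L09 probe with 7.69. The longest shared runs of the 5 bright probes were 30 (Gm13241), 20 (Kif28), 18 (Slc10a1), 17 (Gm6748) and 15 bases (Mtif2). Those of the 5 lower probes were 15 or 16 bases. By the same search among named genes, the profiles closest to that of Csf3r were those of Larp4b, Mtif2 and Siglech. Their distances were 0.04, 0.04 and 0.05 log2 units, and the Mtif2 probe is 1 of the 10 that share a run. The Gm13241 and Slc10a1 probes, however, were highest of the controls on control replicate 2, where Csf3r was lowest. The Csf3r values may therefore hold signal of other transcripts, and how much was not tested.

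Genes around the receptors were counted in 4 lists, and with all 9 columns none of their genes passed an adjusted p under 0.05 in any comparison by limma. Without control replicate 1, where 33.6% of all genes were called in Drosha-deleted and 30.5% in Dicer-deleted against control, 6 and 6 of 33 other cytokine receptors, 3 and 2 of 8 ligands, 4 and 3 of 23 JAK-STAT and adaptor genes, and 3 and 3 of 20 feedback and target genes passed, among them Ifngr2, Lepr, Tnfrsf1b, Flt3l, Il3, Ptpn11 and Myc. With control replicates 2 and 3 as a batch, none of the list genes passed in the 3 comparisons of single groups. The counts that follow are to be read beside the share of all genes with an unadjusted p under 0.05, which was 26.9%, 21.9% and 5.65% in Drosha-deleted against control, Dicer-deleted against control and Drosha-deleted against Dicer-deleted. Among other cytokine receptors, 33 of 36 genes were tested, and 5, 9 and 2 had an unadjusted p under 0.05 in these 3 comparisons. Within the 3, the smallest adjusted p was that of Ifngr2, a chain of the interferon gamma receptor, which had 12.23, 12.38 and 11.87 in the Drosha-deleted samples, 11.56, 11.34 and 11.65 in the Dicer-deleted samples, and 11.59, 11.47 and 11.50 in the controls. The 3 Drosha-deleted samples lay above all others, as in Flt3, with a difference of 0.64 from controls (adjusted p = 0.0916) and of 0.64 from Dicer-deleted cells (adjusted p = 0.371). Il7r, the IL-7 receptor of lymphoid progenitors, had 7.95, 7.45 and 8.21 in the Drosha-deleted samples. It had 7.50, 6.92 and 8.66 in the Dicer-deleted samples and 8.91, 8.54 and 8.82 in the controls. All 3 Drosha-deleted samples lay below all controls, as in 10.5% of all genes, whereas the Dicer-deleted samples overlapped the controls. The difference in Dicer-deleted cells against controls was -1.06 (adjusted p = 0.188). Epor, the erythropoietin receptor, differed by -0.43 in Drosha-deleted (adjusted p = 0.151) and by -0.57 in Dicer-deleted cells (adjusted p = 0.163).

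Several of the larger differences in these lists lay in genes where control replicates 2 and 3 stood outside all other columns. Lepr, the leptin receptor, had 11.92, 11.89 and 12.51 in the Drosha-deleted samples, 11.50, 11.90 and 11.94 in the Dicer-deleted samples, and 11.63, 10.04 and 10.78 in the controls. Its difference in Drosha-deleted cells was 1.29 (adjusted p = 0.109) and 0.47 with both controls as a batch. Flt3l, the ligand of Flt3, had 10.17, 10.23 and 10.72 in the Drosha-deleted samples, 10.50, 10.52 and 10.24 in the Dicer-deleted samples, and 10.68, 11.52 and 11.37 in the controls. Its difference in Drosha-deleted cells was -0.82 (adjusted p = 0.112), and -0.30 with both controls as a batch. Tnfrsf1b, a receptor of tumour necrosis factor, differed by -1.03 in Drosha-deleted cells (adjusted p = 0.101) and by -0.43 with the batch.

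Of the ligands, 8 of 11 were tested and 3, 3 and 3 had an unadjusted p under 0.05 in the same 3 comparisons. Il3, the gene of the cytokine that was also in the medium, had 7.13, 7.18 and 6.48 in the Drosha-deleted samples, 6.27, 6.39 and 6.47 in the Dicer-deleted samples, and 6.51, 6.28 and 6.05 in the controls, a difference of 0.65 between Drosha-deleted cells and controls (adjusted p = 0.119). It was 0.42 with both controls as a batch and 0.77 without control replicate 1 (adjusted p = 0.0267). The lowest value over its alternatives was -0.13, from the scanner values with normexp and quantile normalization. The Il3 values lay near the column medians of 6.30 to 6.32 over all probes, and thus near the dim end of the array. Of the JAK-STAT and adaptor genes below the receptors, all 23 were tested and 3, 3 and 0 had an unadjusted p under 0.05. Ptpn11, the phosphatase Shp2, had the smallest adjusted p against controls, with -0.54 in Drosha-deleted (adjusted p = 0.109) and -0.59 in Dicer-deleted cells (adjusted p = 0.147). It too is a gene where both doubtful controls lay outside the others. With both as a batch it differed by -0.44 and -0.49. Of the feedback and target genes, all 20 were tested and 5, 1 and 2 had an unadjusted p under 0.05. Cish, a feedback inhibitor induced through Stat5, had 13.82, 14.00 and 13.49 in the Drosha-deleted samples, 13.52, 12.82 and 13.25 in the Dicer-deleted samples, and 13.10, 12.82 and 13.36 in the controls. The 3 Drosha-deleted samples lay above all controls and overlapped the Dicer-deleted samples by 1 array, with a difference of 0.67 from controls (adjusted p = 0.122) and 0.57 from Dicer-deleted cells (adjusted p = 0.784). Bcl6, a transcriptional repressor, differed by -0.61 in Dicer-deleted cells against controls (adjusted p = 0.127). It had 9.81, 9.64 and 9.80 in the Drosha-deleted samples and 9.56, 9.25 and 9.45 in the Dicer-deleted samples. The controls had 10.07, 10.08 and 9.94, so the samples of both deletions lay below all controls. Such an order was seen in 10.5% of all genes for Drosha-deleted and 9.94% for Dicer-deleted samples.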

How the data were processed

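RNA of 9 samples was measured on Agilent one-colour arrays (Cy3). The deposited scanner files hold intensity values made with Feature Extraction 10.7.3.1 under protocol GE1_107_Sep09, with probes placed on mm9, per the file headers. The authors' deposited series values are on a log2 scale with column medians of 6.30 to 6.32, without centring of probes. Limma is named by the submitters' processing notes without a version, and neither the background step nor the source array of a column is given in the sources used here.

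From these, series values were joined to probes by feature number. Of 55681 probes other than controls, 31490 passed the scanner's test for signal well above background on all arrays of 1 group or more. The scanner file of control replicate 2 marked 93.1% of probes as above background, against 53.4% to 61.6% on the other 8, which bears on this filter. Names were updated through a RefSeq table of GRCm38.p6 (26413 probes by accession, 3859 by symbol, 735 by synonym, and 24674 kept the file's name). Each gene was represented by its probe with the highest mean. With R 4.3.3, limma 3.58.1 (files read by data.table, version 1.17.8) fitted 3 group means over 9 columns, with two-sided moderated tests, Benjamini-Hochberg adjustment over 23027 genes and a threshold of 0.05. A batch fit added a term for the columns of control replicates 2 and 3. The fits were tested on simulated data. Marker lists were summed on the linear scale and given as log2, with no test.

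Genes named are the 8 receptors with every probe, Kit, Drosha and Dicer1, up to 4 genes with the smallest adjusted p per list and comparison (not all are described), and the 3 nearest profiles of each receptor whose group means spanned 0.5 log2 units or more. The comparison of Csf2rb with Csf2rb2, the profiles near that of Csf3r, the genes sharing probe sequence and the 3 arrays with low beta chains were chosen after values were seen. The members and lists were chosen with earlier results of these data known. Same-numbered samples did not deviate together (correlations of -0.276 to 0.239 over 9 pairs), so the numbers were not used as pairs.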

Additional observations from a re-analysis of the deposited data

How the results depend on the processing

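None of the 8 receptor genes passed the threshold in any alternative, except Flt3 in Drosha-deleted against control without control replicate 1 (0.67 log2 units, limma adjusted p = 0.0269; over its 20 alternatives 0.60 to 0.98, adjusted p 0.0269 to 0.515). Counts of called genes over the whole table depended on the processing. With all 9 columns 39 genes were called in Drosha-deleted against control, 4 in Dicer-deleted against control, 13 in Drosha-deleted against Dicer-deleted, 30 for the mean of both deletions and 21 by the F test. Leaving out 1 replicate at a time gave 4 to 7747, 0 to 7028, 4 to 16, 3 to 8603 and 6 to 6876, and the highest value was without control replicate 1 in all 5. With the replicate number as a replicate block the counts were 4, 0, 5, 0 and 3 (4537 and 6302 genes at an unadjusted p under 0.05 where 0 were called), and no receptor gene's call changed. Scanner values scaled to the 75th percentile gave 7, 3, 2, 5 and 11, and without control replicate 2 they gave 10, 4, 5, 3 and 10. Scanner values after normexp and quantile normalisation gave 1, 0, 1, 0 and 1 (1618 and 2789 at an unadjusted p under 0.05 where 0 were called), and without control replicate 2 they gave 7, 2, 14, 3 and 10, a setting chosen after seeing the data. No filter gave 25, 2, 10, 10 and 14, the mean of all probes gave 33 by the F test, and slide as a block gave 13, 3, 7, 6 and 12. With only the 2 groups compared, 5, 0 and 11 were called (4028 at an unadjusted p under 0.05 where 0 were called). With control replicates 2 and 3 as a batch, chosen after seeing the data, 35, 23, 16, 31 and 37 were called. The cause of these changes was not tested. With the scanner file of control replicate 2 included, the median of all genes moved by 0.36 and 0.38 log2 units (75th percentile) and by 0.19 and 0.19 (normexp) in Drosha-deleted and Dicer-deleted cells against control, so receptor differences in those settings are relative to these shifts.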
